A study of Homo sapiens with 6 samples.

Results

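The genes described here lie at the end of the long arm of chromosome 22, in band 22q13.3. They are the protein-coding genes of chromosome 22 whose start in the deposited table is at or above base 45000000 of hg19, from PRR5 at 45064593 to the end of RABL2B at 51222091. The rule took 67 of the 48162 genes in the table. The members were chosen by position, but the band itself was selected on the fold changes of MAPK11, MAPK8IP2 and PHF21B between mimics, so all values of that comparison are given as a description and carry no test of their own.

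RNA was measured in Ago2 precipitates from HEK293 cells, an established human embryonic kidney line. Ago2, the protein that carries small RNAs in silencing, was transfected with a Flag tag, together with a microRNA-219 mimic (3 libraries) or a negative control mimic (3 libraries). Each group has 1 library from 22 August, 5 September and 18 September, and all 6 carry the transfected Ago2. A level in such a precipitate mixes the amount of a transcript in the cells with its binding, since input RNA was not used here, and in bulk RNA fewer cells making a transcript and less of it per cell cannot be told apart.

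Gene-dense and GC-rich, 22q13.3 holds genes of many unrelated functions. Loss of the band in people causes Phelan-McDermid syndrome, in which loss of SHANK3, a scaffold of excitatory synapses, is a main contributor. MicroRNAs guide Ago2 to transcripts mainly through the seed, bases 2 to 8 of the mature strand, and such transcripts can become less stable or less translated. Which mature strand was in the mimic is not given in the labels. Both strands of a miR-219 hairpin are shown so that the seeds can be compared, from RefSeq (GRCh38.p14, chromosome 9, minus strand, chr9:128392676-128392696 for the 5p strand and chr9:128392632-128392653 for the 3p strand), with the seed in capitals.
hsa-miR-219a-5p: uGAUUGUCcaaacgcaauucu
hsa-miR-219a-2-3p: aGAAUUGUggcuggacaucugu
The seeds of the 5p strand and the 3p strand are different. Transcript sequences were not used here, so sites for either seed in the members were not counted.

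Libraries held 20379336 to 31490366 counts with the mimic and 20233819 to 34408699 with the control. AGO2 took 12.6 to 16.7% of the counts with the mimic and 10.6 to 18.0% with the control. All 7 HEK293 markers looked at, among them VIM, KRT8 and NEFL, were counted in every library. Markers of other cell types were not absent: for HBB, the control of 5 September held 690 CPM and the other libraries at most 0.0926 CPM. Transcripts of intestine and plasma cells (IGHA1, IGJ, PIGR and FABP1) set 2 libraries apart. Their sum was 0.0953, 9.04 and 14.9 CPM in the mimic libraries of 22 August, 5 September and 18 September, against 30.8, 0.0291 and 24.3 CPM in the control libraries of those dates.

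The members took 0.218 to 0.249% of the counts of a library with the mimic and 0.219 to 0.249% with the control. Of the 67 members, 48 passed the filter on low counts and 19 did not. The untested genes never exceeded 10 counts in a library, and 4 of them had 0 counts in every library. Among them are the bladder protein UPK3A, the sperm protease ACR, the kidney enzyme MIOX and the germline helicase MOV10L1. Intervals of 28 members overlap another gene of the table, 20 of them a protein-coding gene. HDAC10, a deacetylase, had 2 to 8 counts and overlaps MAPK12 on the same strand. CHKB, which phosphorylates choline, had 2 to 5 counts and CPT1B, a fatty acid transferase of mitochondria, had 1 to 7, and both overlap the readthrough gene CHKB-CPT1B, which had 0 counts. How reads on overlapping genes were counted is not given in the sources used here, so these low counts may miss reads that were shared.

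Per length of exon the members ranged widely. PIM3, a kinase that promotes survival and growth, was highest, at 80.1 ± 7.04 CPM per kilobase with the mimic and 89.2 ± 7.54 with the control (mean ± SD, n = 3 each). ATXN10, the ataxin whose gene carries the repeat of spinocerebellar ataxia type 10, followed at 55.2 ± 10.6 with the mimic and 64.5 ± 11.9 with the control. NUP50, a nuclear pore protein, came next at 37.7 ± 4.71 CPM per kilobase with the mimic and 39.3 ± 4.18 with the control. NCAPH2, a condensin subunit, had 28.5 ± 3.49 with the mimic and 32.5 ± 3.35 with the control, and SBF1, a myotubularin-related pseudophosphatase, had 30.7 ± 7.41 with the mimic and 29.5 ± 5.05 with the control. The levels of NCAPH2 and SBF1 thus lay within a standard deviation of each other. The median over the 48 tested members was 9.99 CPM per kilobase. It was 5.13 over all 16233 tested genes and 6.76 over the 13792 tested protein-coding genes, the type of all members.

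MAPK11, PHF21B and MAPK8IP2 had the highest fitted fold changes of the tested members, and so lay above the tested members next to them. Within single dates some nearby genes were as high: on 22 August SHANK3 had a log2 ratio of 1.02 against 0.94 for MAPK8IP2. On 18 September TYMP had 2.25 against 0.66 for MAPK8IP2, but the TYMP ratio rests on 11 counts with the mimic and 1 with the control. MAPK11 and MAPK12 encode p38 kinases, which respond to stress and cytokines. MAPK8IP2 (also JIP2) is a scaffold that holds kinases of the JNK cascade together. PHF21B is a PHD finger protein related to PHF21A, a histone reader of the LSD1 demethylase complex. All 4 belong to the members described by name because of this comparison.

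MAPK11 (ENSG00000185386, minus strand, chr22:50702142-50709196 of hg19) had 169, 164 and 142 counts in the mimic libraries of 22 August, 5 September and 18 September, against 71, 104 and 84 in the control libraries. On the scale of CPM these were 5.84, 5.78 and 6.57 with the mimic, and 2.82, 3.08 and 3.99 in control libraries. Every mimic library lay above every control library. The fitted log2 fold change was 0.88 (SE 0.21). A gap of 1.89 kb separates it from MAPK12, its neighbour on the same strand, and no other gene of the table overlaps it. The 250 bases before its RefSeq start (GRCh38.p14, minus strand, chr22:50270381-50270630) are shown beside those of MAPK12 because the neighbours had different values, with GGGCGG and its reverse complement in capitals.
MAPK11: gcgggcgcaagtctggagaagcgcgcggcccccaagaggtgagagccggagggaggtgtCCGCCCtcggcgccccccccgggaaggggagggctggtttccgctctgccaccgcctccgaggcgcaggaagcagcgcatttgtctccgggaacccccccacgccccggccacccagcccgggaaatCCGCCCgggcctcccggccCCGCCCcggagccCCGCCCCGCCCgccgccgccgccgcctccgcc
MAPK12: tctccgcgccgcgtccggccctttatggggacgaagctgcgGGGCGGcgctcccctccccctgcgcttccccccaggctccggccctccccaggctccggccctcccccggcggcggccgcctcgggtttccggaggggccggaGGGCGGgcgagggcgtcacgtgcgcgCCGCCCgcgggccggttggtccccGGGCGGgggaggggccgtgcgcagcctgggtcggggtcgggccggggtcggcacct
The window of MAPK12 is on the minus strand at chr22:50261684-50261933 of GRCh38.p14. GGGCGG was found at 5 places before MAPK11 and at 4 before MAPK12, on either strand and with overlaps counted. By share of promoters, it was present in 37 of 50 promoters of members (74%) and in 57.0% of 15253 promoters of protein-coding genes.

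MAPK12 (chr22:50683879-50700254 of hg19, minus strand) had 498, 312 and 315 counts with the mimic against 321, 343 and 316 with the control. Its CPM averaged 14.3 ± 3.11 with the mimic and 12.6 ± 2.43 with the control (SD, n = 3 each). The CPM ranges of the groups overlap. HDAC10 overlaps the interval of MAPK12 on the same strand, so the MAPK12 counts may miss shared reads. The fitted log2 fold change was 0.18 (SE 0.20), and it was −0.11 (SE 0.20) in the 4 libraries with intestinal transcripts. PLXNB2, the plexin receptor on the other side of MAPK11, had 134, 88.5 and 86.8 CPM in mimic libraries and 83.2, 110 and 77.0 CPM with the control. Its mimic value was the higher on 22 August and 18 September and the lower on 5 September (log2 fold change 0.19, SE 0.19).

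MAPK8IP2 (ENSG00000008735, plus strand, chr22:51039114-51052409) had the highest level per length of the 4, with a mean of 10.5 CPM per kilobase over all libraries, beside 2.15 for MAPK12, 1.92 for MAPK11 and 1.62 for PHF21B. Its counts were 2595, 1657 and 1512 with the mimic, and 1175, 1482 and 934 in control libraries. On the CPM scale it had 89.6, 58.4 and 70.0 with the mimic against 46.6, 43.8 and 44.3 with the control, so the control libraries were close together and the mimic libraries spread over a wider range. The fitted log2 fold change was 0.69 (SE 0.16). Its first bases overlap CHKB on the other strand, which had at most 5 counts. MAPK8IP2 was called at an adjusted p under 0.05 by DESeq2 with the date as a block (against 0.0616% of genes). It was also called by edgeR with no filter on low counts (1 of 63 members, against 0.0698% of genes), but not by edgeR with its filter. The band was selected on the values of this gene among others, so nothing is read from these calls. The 250 bases before its start (GRCh38.p14, plus strand, chr22:50600543-50600792) hold GGGCGG at 3 places, again in capitals on either strand.
MAPK8IP2: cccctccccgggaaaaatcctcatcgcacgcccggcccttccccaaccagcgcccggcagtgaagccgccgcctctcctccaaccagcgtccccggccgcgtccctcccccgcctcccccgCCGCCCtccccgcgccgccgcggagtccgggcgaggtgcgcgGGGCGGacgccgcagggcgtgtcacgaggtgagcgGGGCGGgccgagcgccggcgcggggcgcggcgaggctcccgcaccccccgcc
A match of this kind is a description of the letters and not a site of binding.

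PHF21B (ENSG00000056487, minus strand, chr22:45277042-45405880) lies 5.30 Mb from MAPK11, with 40 members between them. It had 228, 206 and 163 counts with the mimic against 88, 137 and 113 with the control. The CPM values were 7.87, 7.26 and 7.54 with the mimic, and 3.49, 4.05 and 5.37 in control libraries, with no overlap between groups. Its log2 fold change was 0.82 (SE 0.20). A pseudogene and a sense-intronic transcript lie within its interval. Neither ARHGAP8 on its proximal side (−0.24, SE 0.49), nor NUP50 on its distal side (−0.06, SE 0.15) had a value near that of PHF21B.

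**Figure D1:**
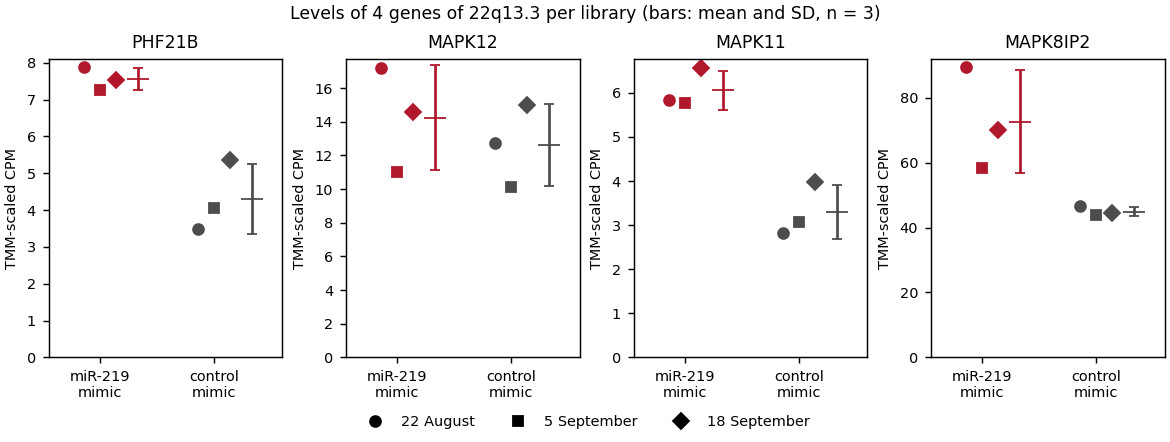
TMM-scaled CPM of PHF21B, MAPK12, MAPK11 and MAPK8IP2 in the miR-219 mimic libraries (red, left) and control libraries (grey, right) of each panel, with symbols for the 3 dates and the mean ± SD beside them. The groups do not overlap for PHF21B, MAPK11 and MAPK8IP2, whose mimic libraries reach 7.87, 6.57 and 89.6 CPM, and they overlap for MAPK12.

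Over all genes, edgeR's quasi-likelihood test called 0 of 16233 at an adjusted p under 0.05 (0%), and 0 of the 48 members. At an unadjusted p under 0.05 it gave 3 members (6.25%), which were MAPK8IP2, PHF21B and MAPK11, beside 488 genes (3.01%) in all. The members were chosen with these values known, so nothing is read from that count. DESeq2 gave 5 genes (0.0308%) at an adjusted p under 0.05 and no member (0). With the date as a block DESeq2 gave 10 genes (0.0616%), with MAPK8IP2 as the 1 member. limma-voom gave 0 genes (0%) and 0 members.

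Mean fold changes of the band were centred at 0. Its median log2 fold change was 0.01, with 25 members above 0 and 23 below, beside 0.00 over all tested genes and 0.00 over 280 tested protein-coding genes of chromosome 22 below the threshold. Without MAPK11, MAPK8IP2 and PHF21B it was −0.01 over 45 members. Mimic libraries all lay above control libraries in 7 members (14.6%, against 4.22% of all tested genes) and all below in 1 member (2.08%, against 3.84%). The 14.6% includes the 3 genes on which the band was selected. Without them 4 of 45 members lay all above, against the same 4.22% of all tested genes. The 7 were MAPK11, MAPK8IP2, PHF21B, RABL2B, RIBC2, CRELD2 and DENND6B, and the 1 was TRMU, which modifies mitochondrial tRNAs.

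**Figure D2:**
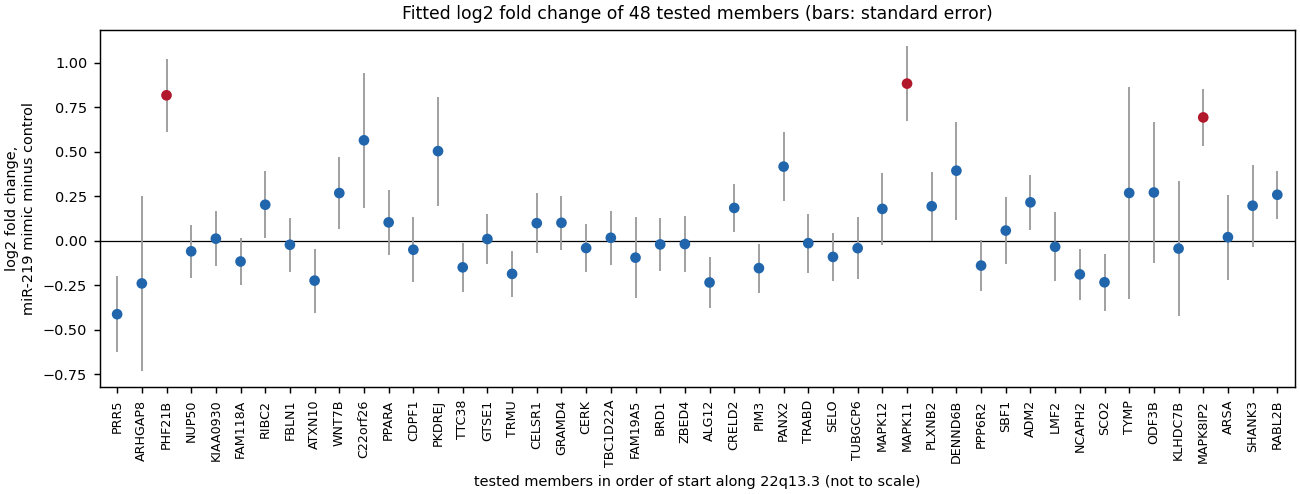
Fitted log2 fold change (miR-219 mimic minus control, vertical axis) of the 48 tested members with standard errors, in order of start. PHF21B, MAPK11 and MAPK8IP2 (red) have 0.82, 0.88 and 0.69, and their neighbours lie nearer to 0.

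Adjacent members had fitted values with a correlation near 0. Over 47 pairs of tested neighbours the log2 fold changes had a Spearman correlation of −0.09 and a Pearson correlation of −0.06, given here as a description over genes that share the same 6 libraries. The same measure over 13769 adjacent pairs of protein-coding genes on all nuclear chromosomes was 0.05 by either coefficient. In 37 pairs of members over 1 kb apart the Spearman correlation was −0.25 and the Pearson correlation −0.19. Signs matched in 20 of the 47 pairs (42.6%), against 51.7% of pairs genome-wide. By date, signs matched in 30 of 47 pairs (63.8%) on 22 August and again on 5 September, against 52.8% and 56.7% genome-wide. On 18 September they matched in 20 pairs (42.6%), against 51.8%. On 22 August 79.2% of members lay above 0 and on 5 September 22.9% did, so many pairs match in any order. The Spearman correlations of neighbours by date were 0.14, −0.04 and −0.11 in date order, against 0.08, 0.17 and 0.04 genome-wide. ARSA, the lysosomal sulfatase that is lost in metachromatic leukodystrophy, lies 11.0 kb from MAPK8IP2 and had a log2 fold change of 0.02 (SE 0.24). SHANK3, the next member, had 0.20 (SE 0.23).

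Within dates most of the band lay on 1 side of 0, above it on 22 August and below it on 5 September. The median log2 ratio of mimic over control was 0.28 on 22 August, −0.21 on 5 September and −0.01 on 18 September, beside 0.02, 0.00 and −0.01 over all tested genes. On 22 August 38 of 48 members (79.2%) had a ratio above 0, against 52.0% of all genes, and on 5 September 11 members (22.9%) did, against 50.1%. Both signs in that order were found in 28 members (58.3%), against 29.7% of all tested genes and 47.5% of the rest of chromosome 22. The reverse order was found in 1 member (2.08%), CDPF1, against 27.8% of all genes. Each date has 1 library per mimic, so no test between these medians is given.

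**Figure D3:**
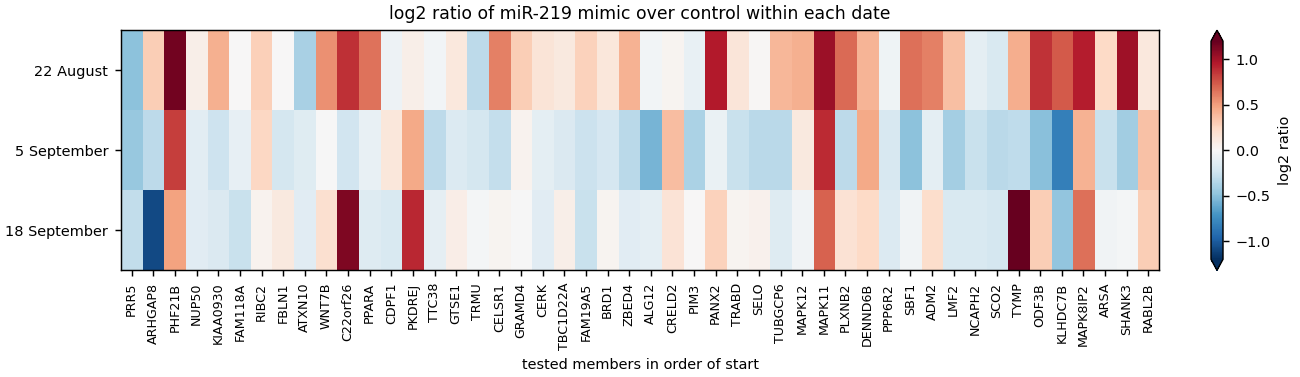
log2 ratio of miR-219 mimic over control on each date (rows) for the 48 tested members in order of start (columns), from blue (below 0) to red (above 0), with colours limited at ±1.2. The row of 22 August is mostly red and that of 5 September mostly blue, with medians of 0.28 and −0.21, while PHF21B, MAPK11 and MAPK8IP2 are red in all rows.

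The shift was not limited to the band. The rest of chromosome 22 had medians of 0.15, −0.14 and −0.03 on the 3 dates in order. Among 23 nuclear chromosomes, chromosome 22 had the highest median on 22 August (0.15, followed by chromosome 17 at 0.11) and the lowest on 5 September (−0.15, followed by chromosome 16 at −0.14). The size of the shift varied within the band, with no steady order along it. The 26 tested members that start at or above base 50000000 had medians of 0.40, −0.29 and 0.02, and the 22 below that base had 0.14, −0.15 and −0.06. In 4 positional groups from the centromere outward, which hold all tested members but C22orf26, the medians of 22 August were 0.29 (PRR5 to RIBC2), 0.12 (FBLN1 to FAM19A5), 0.14 (BRD1 to TUBGCP6) and 0.44 (HDAC10 to RABL2B). Those of 5 September were −0.13, −0.15, −0.32 and −0.27 in the same order of position.

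**Figure D4:**
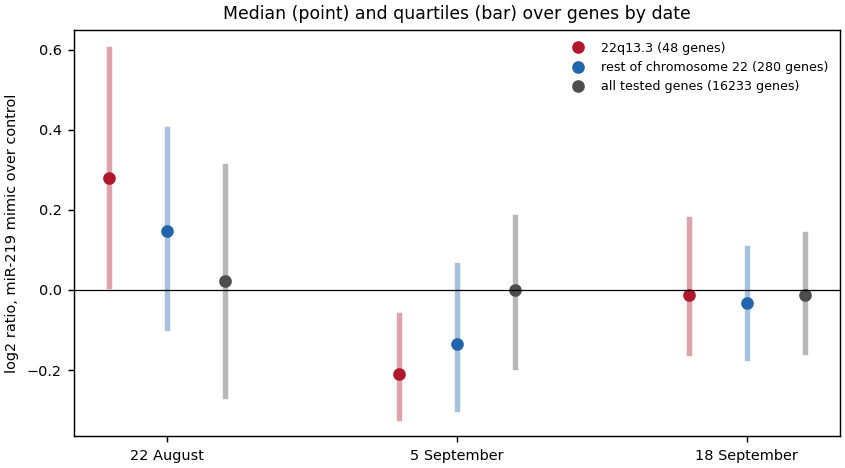
Median (point) and quartiles (bar) of the log2 ratio of miR-219 mimic over control on each date, over the 48 tested members of 22q13.3 (red), 280 genes of the rest of chromosome 22 (blue) and 16233 tested genes (grey). The red points stand at 0.28, −0.21 and −0.01, farther from 0 than the grey points on the first 2 dates.

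Receptors, matrix and secreted proteins, listed together with the synaptic scaffold SHANK3, mostly had these signs, some with ratios near 0. All 9 tested members of the list had a ratio above 0 on 22 August (median 0.60), against 79.2% of all tested members. On 5 September 1 of 9 did (median −0.21), against 22.9%. SHANK3 had 21.0, 11.9 and 16.8 CPM with the mimic against 10.3, 16.0 and 17.1 CPM with the control, so the mimic library was the higher on 22 August and the lower on 5 September. CELSR1, an adhesion receptor of planar cell polarity, had 42.4, 35.5 and 35.1 CPM in mimic libraries and 27.9, 43.2 and 34.4 CPM with the control. PANX2, a pannexin channel protein, had 29.6, 16.9 and 22.6 CPM with the mimic against 15.2, 17.9 and 18.7 with the control (log2 fold change 0.42, SE 0.19). That value was 0.19 without the mimic library of 22 August and 0.11 without both libraries of that date. WNT7B, a Wnt ligand, had 7.08, 4.79 and 5.65 CPM with the mimic against 4.80, 4.82 and 4.94 with the control. FBLN1, the matrix protein fibulin-1, had log2 ratios of 0.00, −0.21 and 0.12. CRELD2, an endoplasmic reticulum protein, was the exception on 5 September with 0.37.

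Of members that act in chromatin, the nucleus and cell division, 6 of 8 tested (75%) had a ratio above 0 on 22 August and below 0 on 5 September. The same order was found in 58.3% of all tested members and 29.7% of all tested genes, so it was not particular to this list. BRD1, a bromodomain scaffold of histone acetylation, had log2 ratios of 0.14, −0.20 and 0.03, and ZBED4, a zinc finger protein, had 0.42, −0.32 and −0.13. TUBGCP6, part of the gamma-tubulin ring complex, had 0.40, −0.33 and −0.16. GTSE1, a microtubule-associated protein of mitosis, had 0.13, −0.17 and 0.08. NCAPH2, by contrast, was below 0 on every date (−0.12, −0.27 and −0.19). PPARA, the nuclear receptor of fatty acid use, had 0.65, −0.09 and −0.16. The 8 tested members had a median fitted value of −0.02, with 3 above 0 and 5 below.

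Members of mitochondria and metabolism had the lowest median among the role groups, −0.12 with 2 of 8 above 0. SCO2, which assembles copper into cytochrome c oxidase, had 25.7, 23.3 and 31.8 CPM with the mimic against 29.1, 29.2 and 36.7 CPM in control libraries, a log2 fold change of −0.23 (SE 0.16). It was lower with the mimic on each date, yet the ranges of the groups overlap. TRMU had 64.3, 67.0 and 66.2 CPM in mimic libraries and 79.7, 77.7 and 67.2 CPM with the control (−0.19, SE 0.13). ALG12, a mannosyltransferase of N-glycan assembly, had −0.24 (SE 0.14). TYMP, thymidine phosphorylase, had a log2 ratio of 2.25 on 18 September that rests on 11 counts with the mimic and 1 with the control, and it overlaps SCO2 and ODF3B.

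Kinases, phosphatases and their scaffolds were divided, with 4 of 8 above 0 and a median of 0.01. PRR5, a subunit of mTOR complex 2 also known as Protor-1, had the lowest fold change of the band. Its CPM were 3.90, 3.31 and 4.72 with the mimic against 5.52, 4.58 and 5.79 in control libraries, a log2 fold change of −0.41 (SE 0.21). The groups overlap, though the mimic library was the lower on each date. SBF1 had 243, 154 and 177 CPM with the mimic against 154, 217 and 182 with the control, with log2 ratios of 0.66, −0.49 and −0.04. CERK, which makes ceramide-1-phosphate, had 0.15, −0.12 and −0.13, and PIM3 had −0.09, −0.38 and 0.01.

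Some other members with high fold changes were scarce transcripts, unlike PANX2 with 383 to 856 counts. C22orf26 (0.56, SE 0.38) had 9 to 27 counts, PKDREJ, related to a sperm receptor (0.50, SE 0.31), had 17 to 41, DENND6B, a Rab exchange factor (0.39, SE 0.28), had 27 to 48, and ODF3B (0.27, SE 0.40) had 10 to 27. RABL2B, a small GTPase at the end of the chromosome, had 24.2, 25.9 and 27.1 CPM in mimic libraries and 22.2, 20.3 and 22.0 CPM with the control (0.26, SE 0.13). It has a near-identical copy on another chromosome, so its counts are uncertain. At the proximal end, the last 3 protein-coding genes outside the threshold were KIAA1644 (0.28, SE 0.20), RP1-32I10.10 with 0 counts and LDOC1L (0.04, SE 0.15). The first 3 inside it were PRR5, PRR5-ARHGAP8 with at most 5 counts, and ARHGAP8 (−0.24, SE 0.49).

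Lower on every date were 8 members (16.7%, against 14.4% of all tested genes), and higher on every date were another 8 (16.7%, against 15.6%). The higher ones were MAPK8IP2, PHF21B, MAPK11, RABL2B, RIBC2, PKDREJ, CRELD2 and DENND6B. Relative to the median of the band on the same date, MAPK11 stood higher by 0.75, 1.11 and 0.72, PHF21B by 0.88, 1.04 and 0.50, and MAPK8IP2 by 0.66, 0.62 and 0.67 on the log2 scale. On 5 September DENND6B (log2 ratio 0.46) and PKDREJ (0.45) were above MAPK8IP2 (0.41). The band was selected on the same libraries, so these values are a description.

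The libraries with few intestinal transcripts also enter the ratios of 22 August and 5 September. A comparison of them with the others therefore partly restates the shift and is not a separate observation. In the mimic library of 22 August and the control library of 5 September, 32 of 48 members (66.7%) had a higher mean log2 CPM than in the other 4 libraries, against 52.4% of all tested genes and 63.2% of the rest of chromosome 22. The median difference was 0.10 over members and 0.02 over all tested genes. On 18 September, when both libraries held such transcripts, the median of the band was −0.01. Whether these transcripts or what came with them had a part in the shift was not tested. In the 4 libraries with intestinal transcripts alone, the log2 fold change was 0.87 (SE 0.27) for MAPK11, 0.50 (SE 0.16) for MAPK8IP2 and 0.75 (SE 0.26) for PHF21B, and the median of the band was 0.01.

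**Figure D5:**
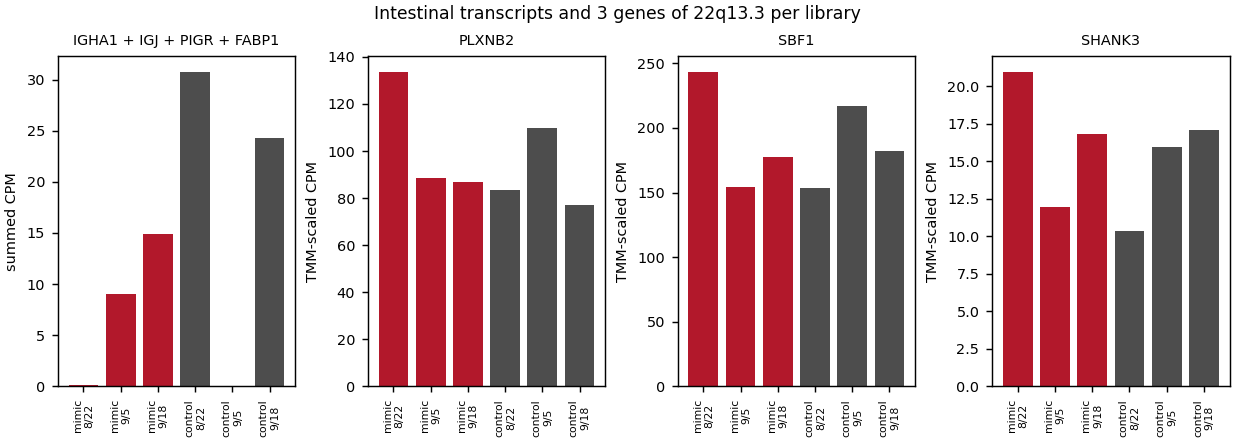
Summed CPM of IGHA1, IGJ, PIGR and FABP1 (left panel) and TMM-scaled CPM of PLXNB2, SBF1 and SHANK3 in each library, with mimic libraries in red and control libraries in grey. The 2 libraries near 0 in the left panel hold the highest PLXNB2 (134 and 110 CPM) and SBF1 (243 and 217 CPM), while for SHANK3 the control of 5 September (16.0 CPM) lies below both libraries of 18 September (16.8 and 17.1 CPM).

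Exonic length moved with the ratios of 22 August. The Spearman correlation between log length and the log2 ratio was 0.39 over 48 members and 0.38 over all tested genes on that date, 0.15 and −0.08 on 5 September, and 0.02 and 0.14 on 18 September. These are descriptions over genes measured in the same pair of libraries. The median exonic length was 3020.5 bases over members and 3148 over all tested genes. With the trend on length removed the medians of the band were 0.19, −0.18 and −0.00. Promoters of 50 members, tested or not, had a median GC content of 74.6%, beside 62.4% over 15253 protein-coding genes. Only 36 of 48 tested members had a promoter entry, so a relation of base composition to the ratios is not given.

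The dates gave a comparison that the choice of the band did not use. In the fit with mimic and date as terms, 0 of 48 members differed between dates at an adjusted p under 0.05 by edgeR's F test, against 50 of 16233 genes (0.308%). At an unadjusted p under 0.05 there were 4 members (8.33%), ARSA, SCO2, ATXN10 and MAPK12, against 13.2% of all tested genes. Each date against the others gave 0 members as well, with 0.339% of genes on 22 August, 0% on 5 September and 0.0493% on 18 September. At an unadjusted p under 0.05 these gave 3, 7 and 7 members, against 6.89%, 12.9% and 16.4% of genes. limma-voom's F test gave 0 of 48 members, against 0.253% of genes, and DESeq2's likelihood ratio test gave 0 of the 44 members with an adjusted p, against 1.18%.

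By edgeR's F test ARSA had the lowest adjusted p of the members, above the threshold. It had 21.2, 11.2 and 12.2 CPM in mimic libraries and 18.0, 13.5 and 12.5 CPM with the control, so the libraries of 22 August were the highest of each group. On that date it was higher by 0.67 on the log2 scale than on the others (SE 0.15, edgeR adjusted p = 0.261). On 18 September ATXN10 was higher than on the other dates by 0.38 (SE 0.11, edgeR adjusted p = 0.225). SCO2 was higher on that date by 0.35 (SE 0.11, edgeR adjusted p = 0.235). These adjusted p-values were lower than that of ARSA and also above the threshold. In MAPK8IP2 the difference of 22 August was 0.29 (SE 0.13, adjusted p = 0.754), in MAPK11 −0.18 (SE 0.18, adjusted p = 0.898) and in PHF21B −0.14 (SE 0.19, adjusted p = 0.939). For MAPK12 the log2 difference of 5 September from the other dates was −0.49 (SE 0.15, edgeR adjusted p = 0.358).

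Date fits with a library left out have 1 library on its date and leave 1 residual degree of freedom. So nothing is read from their counts, which rose most without a library of 22 August. Without the control library of that date 17 of 48 members (35.4%) were called by the F test, against 25.5% of genes, and without the mimic library 8 (16.7%), against 16.8%. Without the mimic library of 5 September there were 2 members (4.17%), against 4.7% of genes, and leaving out its control partner gave 1 (2.08%), against 2.92%. With the split by intestinal transcripts as a further term 24 members (50%) were called by the F test, against 33.2% of genes, in a fit that leaves 1 residual degree of freedom. By single dates that fit gave 6 members on 22 August (against 11.4%), 19 on 5 September (against 23.8%) and 15 on 18 September (against 21.7%). With no filter on low counts ARSA alone was called, by the F test (against 2.01%) and on 22 August (against 0.837%).

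Outside the band, other genes of the p38 and JNK cascades gave no call. Of 30 listed genes, all tested, 0 passed in the comparison of mimics (background 0%), 19 were above 0 and the median log2 fold change was 0.02. MAPK10, the JNK isoform best known from neurons, had 0.691, 1.13 and 1.16 CPM with the mimic against 0.476, 0.591 and 0.665 CPM in control libraries, a log2 fold change of 0.77 (SE 0.36). MAP2K3, an activator of p38, had −0.21 (SE 0.13), MAP3K4, a stress-cascade kinase further upstream, had 0.24 (SE 0.14), and RPS6KA5, a chromatin kinase activated by p38, had 0.22 (SE 0.14). Between dates 0 of the 30 passed by the F test, against 0.308% of all tested genes. The 12 genes of PHF21A and the LSD1 complex had a median of 0.05, with 9 above 0. Of these 12, 0 passed in either comparison, against the same shares of 0% and 0.308%. Among them PHF21A had 0.25 (SE 0.15), the zinc finger protein ZMYM2 0.21 (SE 0.15), the corepressor RCOR2 0.19 (SE 0.20) and GSE1 0.15 (SE 0.16).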

How the data were processed

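RNA from Flag-Ago2 precipitates was counted per gene in 6 libraries. The deposited values are counts, as the authors made them. Reads were aligned to hg19 with STAR 2.5 and counted with HTSeq 0.6.1, and DESeq2 is named as a tool, per the submitters' processing notes. The counting mode and strand setting are not given in the sources used here. The exonic gene length is another deposited column.

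Groups and dates came from the labels, and 0 columns of per-sample values were left over. The members, the gene lists and the tests were chosen with earlier results of these data known. Alternatives with the split by intestinal transcripts, with the trend on length removed, with members that overlap no gene or reach 10 CPM per date, and without the 3 leading genes were added after the data were seen.

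Counts were fitted in R 4.3.3 with edgeR 4.0.16 (quasi-likelihood F test, TMM, filterByExpr with min.count 10 and min.total.count 15) on all genes, by mimic, and by mimic and date. Calls needed an adjusted p (Benjamini-Hochberg, all tested genes) under 0.05. limma 3.58.1 and DESeq2 1.42.0 were alternatives. CPM use TMM-scaled library sizes, except the summed intestinal transcripts, which use plain totals. A prior count of 2 entered the log2 ratio of each date. The SE is the absolute log2 fold change divided by the root of F. Tables used Python 3.11.15, pandas 2.3.3 and statsmodels 0.14.6 (lowess, span 0.3), and figures matplotlib 3.10.9. No label names separate cultures, so p-values reflect only how these libraries vary, which may be technical.

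Genes named with values were the 4 leading genes, the 8 highest and 8 lowest members, the 5 highest per length, the 3 on either side of the threshold and the 4 lowest p of each outside list. Further members stand for their role group or overlap and were chosen after values were seen.

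By the labels, mimic and control libraries share dates, which pairs them. Their deviations from the group means correlated at 0.0466, 0.154 and 0.513 over all tested genes in date order, and at 0.0315, 0.405 and 0.458 over members. Libraries correlated at 0.9796 or more. Symbols were looked up in RefSeq tables of GRCh38.p14 for sequences only, and all gene coordinates are those of the deposited hg19 table. In data simulated with the dispersions of the mimic fit, that fit of 16233 genes recovered 16.7% of 1.5-fold, 69.2% of 2-fold and 96.9% of 4-fold changes. At the same dispersions the fit of 22 August against the other dates recovered 11.1%, 56.1% and 95.5%. The date fit itself had a lower common dispersion (0.0181, against 0.0292 for the mimic fit), which was not simulated.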

Additional observations from a re-analysis of the deposited data

Results flagged for a closer look

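The band's median log2 ratio of mimic over control was 0.28 on 22 August and −0.21 on 5 September, opposite signs under the same comparison. The difference between these dates was not tested, since each date has 1 library per mimic.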

How the results depend on the processing

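With 3 libraries per group, 16.7% of simulated 1.5-fold changes between mimics were recovered, and scarce members such as TYMP had as few as 1 count in a library. For the changes below the cause was not tested. Genes called between mimics (0) became 20 without the count filter, 5 by DESeq2 and 10 by DESeq2 with the replicate block, and members called (0) became 1 without the filter and 1 by DESeq2 with the block. With the replicate block in edgeR both stayed at 0, the neighbour correlation was −0.15 and the p38 and LSD1 medians were 0.02 and 0.05. The band's median fold change lay between −0.06 and 0.11 with a library left out, where genes and members called between mimics ranged from 0 to 0. The median kept within the spread between dates under all alternatives run. The log2 fold change ranged over 20 alternatives from 0.79 to 1.04 for MAPK11, 0.50 to 0.83 for MAPK8IP2, 0.66 to 0.999 for PHF21B and −0.11 to 0.34 for MAPK12. The Spearman correlation of neighbours was −0.25 for pairs over 1 kb apart.

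Date calls over all genes (F test 50, then 22 August 55, 5 September 0 and 18 September 8) became 576, 240, 204 and 494 without the count filter, 165, 114, 62 and 157 by DESeq2, and 5384, 1844, 3867 and 3529 with the split by intestinal transcripts as a term. For 5 September they were also 2 with upper-quartile scaling, 4 with a mean of 10 counts or more and 14 with no mimic term, and for 18 September 20 without AGO2 and mitochondrial genes and 41 with no mimic term. Members called (0 each) became 24, 6, 19 and 15 with the split, and 1 without the filter in the F test and on 22 August. Date fits with the split, or with a library left out, leave 1 residual degree of freedom. With a library left out, genes ranged from 55 to 4239, 54 to 1363, 9 to 2344 and 3 to 3748, and members from 0 to 17, 0 to 9, 0 to 8 and 0 to 9.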

Other observations

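The same interval holds 43 genes of other types, of which 8 were tested. CTA-384D8.20, an antisense transcript within CHKB, was chosen after its values were seen. It had 37, 27 and 13 counts with the mimic against 8, 21 and 12 with the control, a log2 fold change of 0.91 (SE 0.40). RP3-439F8.1, another antisense transcript, had −0.60 (SE 0.39), with 13, 16 and 22 counts with the mimic against 28, 24 and 26 with the control. CTA-29F11.1, which lies just before TBC1D22A on the other strand, had 4.11, 4.83 and 4.49 CPM in mimic libraries and 7.18, 5.71 and 4.61 CPM with the control (−0.38, SE 0.21). The strand setting of the counting is not known, so reads of CTA-384D8.20 and of CHKB cannot be told apart.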
